A study of Homo sapiens with 18 samples.

Results

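The complement genes described here are 9: C3, its partners in the alternative pathway CFD and CFP, the receptors C3AR1, C5AR1 and CR1, and the membrane regulators CD46, CD55 and CD59. They were taken by gene symbol from 19068 genes listed for at least 1 of 2 human acute myeloid leukaemia lines, and all 9 appeared in the HL-60 table but 7 in that of MOLM-13. CR1 and C5AR1 were listed for HL-60 alone. The set was chosen by the C3 values with decitabine: C3 was already known to have the highest log2 change with that drug in MOLM-13 and to differ between the lines, so every C3 contrast that uses DAC samples is given as a description with no test. The C3 contrasts of NTX-301 with DMSO share their DMSO samples with those used in the choice. Their gene identifiers are 718 for C3, 1675 for CFD, 5199 for CFP, 719 for C3AR1, 728 for C5AR1, 1378 for CR1, 4179 for CD46, 1604 for CD55 and 966 for CD59.

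HL-60 is a promyelocytic line, and MOLM-13 is a monocytic line with a KMT2A rearrangement and an internal tandem duplication of FLT3; each is a single established line. Each line was treated for 48 h (sampled at day 2) with the solvent DMSO, with decitabine (DAC) or with NTX-301, in 3 replicates a group, 18 samples in all. Once built into DNA, DAC binds and depletes DNA methyltransferases; NTX-301 belongs to the same class of nucleoside inhibitors. The stated concentrations are 30 nM in HL-60 wells and 15 nM in MOLM-13 wells, in a wording that may cover both drugs or DAC alone, so line and dose cannot be told apart, and whether the 2 drugs were given at 1 dose is not settled. The labels call the wells triplicates and do not say whether they came from separate cultures, so p-values measure the spread between these samples.

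Complement is a cascade of plasma and membrane proteins that marks targets for uptake and lysis. Its central protein, C3, is cut into C3a, a small signal read by a receptor on myeloid cells, and C3b, which attaches to surfaces and feeds an amplification loop, the alternative pathway. The liver makes most plasma C3, while monocytes, macrophages and neutrophils also make C3, properdin and the receptors, and blood cells carry inhibitors that protect them from their own complement.

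Values are the authors' normalized log2 expression values, 1 per gene and sample. Whether they account for transcript length is not stated, so levels are compared within a gene only, and each line appears to have been normalized apart, so levels are set side by side across lines with no test. Read depth is unknown. Low genes lie close to their own mean: the median range over the 9 samples of a line was 0.0842 for HL-60 genes with a mean log2 value of 3 to 6 and 0.208 for those of 8 to 12, so differences of low genes are understated. The median replicate SD of a gene was 0.027 to 0.043 across the 6 groups. The 5 granule genes of granulocyte precursors (MPO, ELANE, PRTN3, AZU1, CTSG) were listed in both lines. Of the monocyte and macrophage markers, 3 were listed in both lines (LYZ, CD68 and CSF1R), and CD14, CD163 and FCN1 were listed in neither. HOXA9 and MEIS1 were listed in MOLM-13 alone. Of 5 hepatocyte markers, 1 was listed in HL-60 (SERPINA1) and 0 in MOLM-13, with ALB, APOA1, APOB and TTR in neither. In bulk RNA, a change in the number of cells that express a gene and a change in RNA per cell cannot be told apart.

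A gene is named as called where limma gave it an adjusted p-value under 0.05 (Benjamini-Hochberg, every gene of the contrast included). The 3 contrasts of a line share samples, as both drugs are set against the same DMSO wells.

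**Figure D1:**
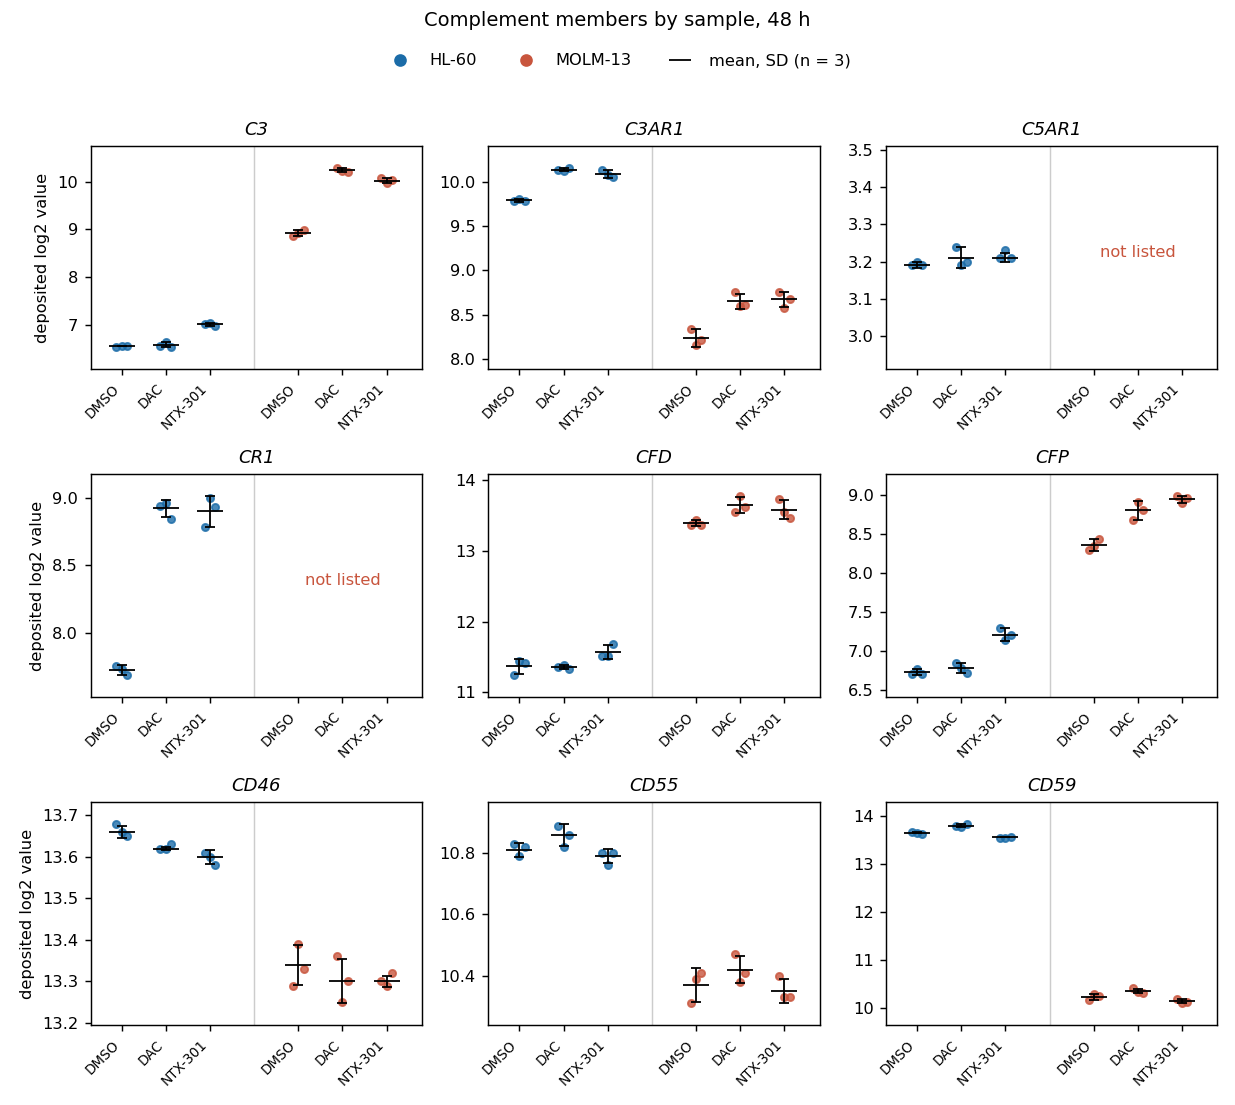
Deposited log2 value (y axis, scaled for each gene) of each complement gene in DMSO, DAC and NTX-301 samples of HL-60 (blue) and MOLM-13 (red); points are the 3 replicates and black bars the mean and SD. C3 in MOLM-13 and CR1 in HL-60 stand clearly above DMSO with both drugs, while CD46 and CD55 move little.

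C3 was the gene of this set with the highest log2 difference from DMSO in MOLM-13. Its log2 values there were 8.86, 8.93 and 8.99 in DMSO, 10.29, 10.22 and 10.19 with DAC, and 10.08, 9.97 and 10.03 with NTX-301. All 6 treated samples lay above all 3 DMSO samples, and the 3 DAC samples lay above the 3 NTX-301 samples. The log2 difference from DMSO was 1.31 (SE 0.048) with DAC, a 2.48-fold level on this scale, given as a description. With NTX-301 C3 rose by 1.10 (SE 0.048, limma adjusted p = 8.03e-08), which ranked 4 among 17475 genes. This contrast shares its DMSO samples with the choice. The difference of NTX-301 from DAC was −0.21 (SE 0.048), a description that rests on the DAC values used in the choice.

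In HL-60, C3 was 6.56, 6.58 and 6.57 in DMSO, 6.57, 6.66 and 6.56 with DAC, and 7.02, 7.05 and 6.99 with NTX-301. The DAC samples overlapped the DMSO samples, and the NTX-301 samples stood apart from both. NTX-301 raised C3 by 0.46 (SE 0.036, limma adjusted p = 3.14e-07), in a contrast that shares its DMSO samples with the choice. The DAC difference was 0.029 and the difference of NTX-301 from DAC 0.43 (SE 0.036 for each), both descriptions. Beside these values, the summed linear level of LYZ, CD68 and CSF1R in MOLM-13 was 91825 to 96873 in DMSO, 157731 to 170433 with DAC and 101626 to 107140 with NTX-301. In HL-60 it was 5071 to 5232 in DMSO, 6019 to 6312 with DAC and 4854 to 5051 with NTX-301, and most of each sum was LYZ. The single markers moved apart in HL-60: mean log2 values in DMSO, DAC and NTX-301 were 12.28, 12.53 and 12.21 for LYZ, 6.8, 7.0 and 6.98 for CD68, and 6.6, 6.68 and 7.02 for CSF1R. CSF1R thus stood highest with NTX-301 there, as did C3, and LYZ lowest. In MOLM-13 the means in the same order were 16.47, 17.25 and 16.59 for LYZ and 11.56, 12.24 and 12.02 for CD68. For CSF1R they were 9.82, 10.33 and 10.22. Each of these markers was highest with DAC and lowest in DMSO in MOLM-13, as was C3. The sum of the 5 granule genes in HL-60 was 523312 to 556375 in DMSO, 520915 to 522125 with DAC and 402528 to 412026 with NTX-301. Most of each HL-60 sum was MPO, whose mean was lower with DAC than in DMSO (18.64 and 18.71). The means of AZU1, CTSG, ELANE and PRTN3 were higher with DAC there, and all 5 were lower with NTX-301. In MOLM-13 the sum was 200279 to 208760 in DMSO, 217628 to 240223 with DAC and 199117 to 217652 with NTX-301. The part of monocyte-like or granule-rich cells in the values of C3 and the other genes was not tested.

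CFP encodes properdin, the plasma protein that stabilizes the C3-cleaving enzyme of the alternative pathway. In HL-60 its log2 values were 6.70, 6.77 and 6.70 in DMSO, 6.85, 6.78 and 6.72 with DAC, and 7.29, 7.14 and 7.21 with NTX-301. As for C3, the NTX-301 samples stood above both other groups, and the DAC samples overlapped DMSO. CFP rose with NTX-301 by 0.49 (SE 0.046, limma adjusted p = 1.59e-06), while the DAC difference of 0.057 was not called (95% limits −0.041 to 0.16). The direct difference of the drugs was 0.43 (SE 0.046, limma adjusted p = 8.81e-06).

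In MOLM-13, CFP was 8.29, 8.35 and 8.43 in DMSO, 8.68, 8.91 and 8.81 with DAC, and 8.98, 8.89 and 8.96 with NTX-301. Both drugs raised it with no overlap with DMSO, by 0.44 for DAC (SE 0.065, limma adjusted p = 0.000281) and 0.59 for NTX-301 (SE 0.065, adjusted p = 2.59e-05). The drugs were not called different there (0.14, 95% limits −0.00050 to 0.28).

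CFD encodes factor D, the protease that cuts factor B to form the same enzyme. In HL-60 its log2 values were 11.24, 11.44 and 11.42 in DMSO, 11.36, 11.38 and 11.33 with DAC, and 11.52, 11.52 and 11.69 with NTX-301. It rose with NTX-301 by 0.21 (SE 0.051, limma adjusted p = 0.00519) and was not called with DAC (−0.0089, 95% limits −0.12 to 0.10). NTX-301 exceeded DAC by 0.22 (adjusted p = 0.00533).

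In MOLM-13, CFD was 13.36, 13.44 and 13.36 in DMSO, 13.55, 13.78 and 13.62 with DAC, and 13.73, 13.55 and 13.47 with NTX-301. It rose with DAC by 0.26 (SE 0.065, limma adjusted p = 0.00813) and with NTX-301 by 0.20 (SE 0.065, adjusted p = 0.0285). The NTX-301 call was lost without NTX-301 replicate 1 (0.12), without DMSO replicate 1 (0.18) or 3 (0.18), and without the mean-variance trend. C3, CFP and CFD were therefore called higher with NTX-301 in both lines. CFB, which encodes factor B of the same loop, was not among the genes tested in either line. DAC raised CFP and CFD in MOLM-13, and neither was called with DAC in HL-60.

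Of the receptors, CR1 had the strongest change. CR1 encodes complement receptor 1 (CD35), which binds C3b and C4b on coated particles and also helps to break down the C3-cleaving enzyme. In HL-60 its log2 values were 7.76, 7.74 and 7.69 in DMSO, 8.94, 8.96 and 8.84 with DAC, and 8.78, 9.0 and 8.93 with NTX-301. All 6 treated samples lay at least 1 unit above the DMSO mean of 7.73, and the 2 drugs overlapped. DAC raised CR1 by 1.19 (SE 0.053, limma adjusted p = 2.57e-09), a 2.28-fold level, and NTX-301 by 1.17 (SE 0.053, adjusted p = 1.38e-09), a 2.25-fold level. These ranked 9 and 12 among 17046 genes from the highest log2 difference down. The drugs were not called different (−0.015, 95% limits −0.13 to 0.10). CR1 has a close paralogue, CR1L, and internal repeats, so reads could have been shared; CR1L was not among the listed genes.

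C3AR1 encodes the receptor for C3a, and it rose with both drugs in both lines. In HL-60 its log2 values were 9.78, 9.81 and 9.78 in DMSO, 10.13, 10.12 and 10.16 with DAC, and 10.14, 10.08 and 10.05 with NTX-301. In MOLM-13 they were 8.34, 8.15 and 8.21 in DMSO, 8.75, 8.60 and 8.61 with DAC, and 8.75, 8.57 and 8.67 with NTX-301. No treated sample overlapped the DMSO samples of its line, and the 2 drugs overlapped in both lines. The rises in HL-60 were 0.35 with DAC (SE 0.032, limma adjusted p = 3.85e-06) and 0.30 with NTX-301 (SE 0.032, adjusted p = 5.86e-06). Those in MOLM-13 were 0.42 (SE 0.069, adjusted p = 0.000577) and 0.43 (SE 0.069, adjusted p = 0.000334). The difference between the drugs was −0.052 in HL-60 (95% limits −0.12 to 0.017) and 0.012 in MOLM-13 (−0.14 to 0.16), neither called.

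C5AR1 encodes the receptor for C5a, the corresponding fragment of C5, and its level in HL-60 was low. Its log2 values spanned 3.19 to 3.20 in DMSO, 3.19 to 3.24 with DAC and 3.21 to 3.23 with NTX-301. The NTX-301 samples lay above the DMSO samples by a narrow margin (0.021, and −0.010 after centring each sample), and no difference was called. At this level the values are held near their mean, so a difference is understated.

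CR1 and C3AR1 were called with both drugs wherever they were listed, so the 250 bases before their start sites are shown from the RefSeq promoter table of GRCh38.p14, with each CG dinucleotide, the site of cytosine methylation, in capitals. The files' build is hg19, the windows were matched by symbol, and DNA methylation was not measured. The CR1 window is chr1:207495907-207496156 on the plus strand, and the C3AR1 window is chr12:8066360-8066609 on the minus strand.
CR1: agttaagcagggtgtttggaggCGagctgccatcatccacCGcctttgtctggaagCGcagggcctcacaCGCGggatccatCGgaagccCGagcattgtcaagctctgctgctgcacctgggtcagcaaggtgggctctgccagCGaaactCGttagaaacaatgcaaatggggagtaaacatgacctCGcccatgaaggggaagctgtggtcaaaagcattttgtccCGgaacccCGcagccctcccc
C3AR1: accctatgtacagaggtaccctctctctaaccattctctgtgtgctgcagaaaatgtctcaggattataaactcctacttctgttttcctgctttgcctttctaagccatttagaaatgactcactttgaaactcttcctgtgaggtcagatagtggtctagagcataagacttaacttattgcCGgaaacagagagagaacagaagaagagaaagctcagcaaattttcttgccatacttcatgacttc
The CR1 window holds 12 CG and the C3AR1 window holds 1. The median over 35116 windows of the same length was 11, and 14.7% of windows held as few as C3AR1 or fewer. The 2 members called higher with both drugs in HL-60 thus differ in the CG content of these windows. Of the 9 symbols, 8 matched the table, all but C3. CFD (11), C5AR1 (7), CD55 (12), the 2 CFP windows (4 each) and the 2 CD46 windows (19 and 21) were the others, and the 4 CD59 windows held 1 to 18. The letters GAGGAA, the core that the myeloid factor PU.1 binds, counted on both strands, were in 23.6% of all windows. They were absent from the CR1 and C3AR1 windows and present 2 times each in that of C5AR1 and in 1 of the 2 of CFP.

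CD46, CD55 and CD59, the membrane regulators, moved less, and of these CD59 was the 1 called between the drugs; after centring each sample on its median CD55 (−0.10) and CD46 (−0.058) were called between them in HL-60 as well. CD59 is a lipid-anchored protein that blocks assembly of the membrane attack complex. In HL-60 its log2 values were 13.67, 13.66 and 13.64 in DMSO, 13.80, 13.78 and 13.85 with DAC, and 13.56, 13.56 and 13.57 with NTX-301. The 3 groups did not overlap, with DAC highest and NTX-301 lowest. CD59 rose with DAC by 0.15 (SE 0.021, limma adjusted p = 0.00017) and fell with NTX-301 (−0.090, SE 0.021, adjusted p = 0.00395), a difference between the drugs of −0.24 (SE 0.021, adjusted p = 1.49e-06).

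In MOLM-13, CD59 was 10.16, 10.29 and 10.25 in DMSO, 10.41, 10.34 and 10.31 with DAC, and 10.19, 10.10 and 10.13 with NTX-301. Against DMSO it was called with neither drug (0.12 with DAC, 95% limits 0.024 to 0.22, adjusted p = 0.0515; −0.095 with NTX-301, 95% limits −0.19 to 0.0017, adjusted p = 0.101), although the NTX-301 difference was called after centring (−0.13, adjusted p = 0.0326). NTX-301 against DAC gave −0.22 (SE 0.044, limma adjusted p = 0.0147), with no overlap, and this call was lost without DAC replicate 1 (−0.19) and without NTX-301 replicate 2 (−0.20) or 3 (−0.21). In both lines CD59 was thus lower with NTX-301 than with DAC.

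CD55, the decay-accelerating factor that takes apart C3-cleaving enzymes, was called in none of the 6 within-line contrasts by limma, although at an unadjusted p-value 1 was under 0.05. Its log2 values ran from 10.76 to 10.89 over the 9 HL-60 samples and from 10.31 to 10.47 over the 9 MOLM-13 samples. That contrast was NTX-301 against DAC in HL-60 (−0.070, 95% limits −0.13 to −0.0088, adjusted p = 0.08), which was also called without the trend. CD46, the membrane cofactor for cutting C3b, ran from 13.58 to 13.68 in HL-60 and from 13.25 to 13.39 in MOLM-13. It fell with NTX-301 in HL-60 by a small amount (−0.062, SE 0.019, limma adjusted p = 0.0163), and that call was lost after quantile normalization (−0.025) and without NTX-301 replicate 3 (−0.053). In RefSeq, CD46 overlaps the pseudogene CDCA4P4, CD55 the long noncoding RNA LOC107985251 and CD59 the gene C11orf91, and whether counting used strand is not stated, so reads of these pairs may be mixed.

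**Figure D2:**
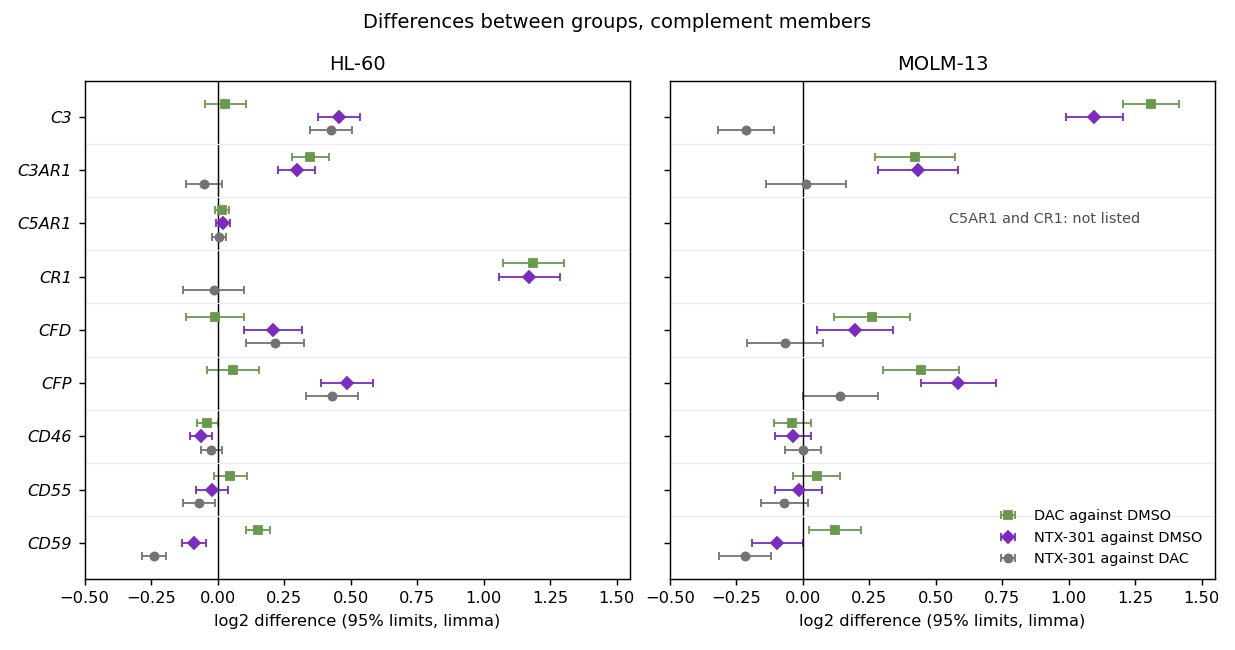
Log2 difference of each complement gene with 95% limits from limma (x axis; for C3 the contrasts with DAC are descriptions), for DAC against DMSO (squares), NTX-301 against DMSO (diamonds) and NTX-301 against DAC (circles) in each line. The furthest points are C3 in MOLM-13 (1.31 and 1.10) and CR1 in HL-60 (1.19 and 1.17), and the CD59 circles lie below 0 in both lines.

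Counted over the set, DAC in HL-60 called 3 of 9 members, all higher (CR1, C3AR1 and CD59), where 24.2% of all genes were called, 11.6% higher and 12.6% lower; DAC and DMSO samples did not overlap for 4 of 9 members and 38.5% of all genes. NTX-301 in HL-60 called 7 of 9, with 5 higher and CD59 and CD46 lower, against 37.4% of all genes, 18.3% higher and 19.2% lower (13.3% and 35.5% after centring each sample on its median). There the groups did not overlap for 8 of 9 members and 47.2% of all genes. In the direct contrast of the drugs in HL-60, CFP and CFD were called higher with NTX-301 and CD59 lower, and C3, whose DAC values were used in the choice, makes the count 4 of 9, against 30.4% of all genes, 15.4% higher and 15.0% lower (10.2% and 33.8% after centring). The 2 drugs did not overlap for 6 of 9 members and 44.4% of all genes.

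In MOLM-13 each drug called the same 4 of 7 members, all higher: C3, whose DAC value was used in the choice, and C3AR1, CFP and CFD. The share of all genes was 36.6% with DAC, 15.4% higher and 21.2% lower (11.2% and 32.8% after centring), and 45.1% with NTX-301, 20.3% higher and 24.8% lower (15.7% and 33.0% after centring). Treated and DMSO samples did not overlap for 5 of 7 members with DAC (47.9% of all genes) and for 4 of 7 with NTX-301 (55.8%). The direct contrast called CD59 lower with NTX-301, and C3, again with its DAC values used in the choice, makes the count 2 of 7, against 7.42% of all genes, 3.01% higher and 4.41% lower; the same 2 were those whose groups did not overlap (27.3% of all genes). That count was 0 without DAC replicate 1 or NTX-301 replicate 2 or 3, and 1 without DAC replicate 2 and with the replicate number as a block. The median log2 difference of the members with DAC was 0.048 (HL-60) and 0.26 (MOLM-13), and with NTX-301 it was 0.21 and 0.20, beside 0.0006 to 0.0034 over all genes. These medians include C3, whose DAC values were used in the choice.

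Each drug's change from DMSO was then compared between the lines for the 7 members listed in both; positive values mean a higher change in MOLM-13. With DAC, C3 differed by 1.28 (SE 0.064, a description). CFP differed by 0.39 (SE 0.083, limma adjusted p = 0.00157) and CFD by 0.27 (SE 0.092, adjusted p = 0.0325), a call lost without the trend and without HL-60 DMSO replicate 2 or 3, HL-60 DAC replicate 1 or 3, MOLM-13 DMSO replicate 1 or 3 or MOLM-13 DAC replicate 2 (0.21 to 0.27 in these 7 of 18 fits). With C3 counted these made 3 of 7 members called, all higher in MOLM-13, where 30.0% of all genes were called and 12.1% were higher, 17.9% lower (8.7% and 29.4% after centring). With NTX-301, C3 differed by 0.64 (SE 0.064, limma adjusted p = 2.68e-07) and was the 1 member of 7 called, against 40.0% of all genes (17.6% higher, 22.4% lower). This C3 contrast uses the DMSO samples that entered the choice of the set, so it is not independent of that choice. C3AR1 was not called different between lines with either drug (0.073 with DAC, 95% limits −0.086 to 0.23; 0.14 with NTX-301, −0.022 to 0.30), and was called with NTX-301 without MOLM-13 DMSO replicate 1 (0.19). CD59 gave −0.030 and −0.0055, neither called.

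Levels in DMSO are set side by side across the separately normalized lines with no test. C3 stood at 6.57 ± 0.009 in HL-60 and 8.93 ± 0.068 in MOLM-13 (SD, n = 3), CFD at 11.37 ± 0.107 and 13.39 ± 0.044, and CFP at 6.73 ± 0.042 and 8.36 ± 0.074. In the same order C3AR1 stood at 9.79 ± 0.020 and 8.23 ± 0.101, and CD59 at 13.66 ± 0.015 and 10.23 ± 0.065. The secreted components were thus listed higher in MOLM-13 and these membrane proteins higher in HL-60. CD46 (13.66 and 13.34) and CD55 (10.81 and 10.37) lay closer together.

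Beyond the 9 genes, a list of 51 other complement genes was followed, of which 13 were tested in HL-60 and 15 in MOLM-13. DAC called 1 higher and 2 lower in HL-60 (24.2% of all genes called), and NTX-301 called 4 higher and 1 lower (37.4% of all genes), shares near those of all genes. In MOLM-13 DAC called 9 higher and 2 lower (36.6% of all genes, 15.4% higher), and NTX-301 7 higher and 2 lower (45.1%, 20.3% higher). The list median there was 0.15 and 0.12, beside 0.0013 and 0.0034 over all genes. After quantile normalization 6 in all were called with DAC and 5 with NTX-301 in MOLM-13, and the NTX-301 count was also 5 without NTX-301 replicate 2.

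ITGAM and ITGAX encode the alpha chains of complement receptors 3 and 4, which bind cleaved C3b, and ITGB2 encodes their shared beta chain. The mean ITGAM level in MOLM-13 rose from 10.09 to 10.73 with DAC (difference 0.64, SE 0.036, limma adjusted p = 4.48e-07) and to 10.80 with NTX-301 (0.71, adjusted p = 1.82e-07). ITGAX rose by 0.64 and 0.69, while ITGB2 fell (−0.071 and −0.15, adjusted p = 0.0488 and 0.000483). In this fit the alpha and beta chains therefore moved in opposite directions in that line. The fall of ITGB2 with DAC lay close to the threshold. After quantile normalization 1 gene of the list was called lower there with each drug, where 2 were without it. Whether ITGB2 kept its call is not given here. In HL-60 ITGAM rose with NTX-301 by 0.43 (SE 0.047, adjusted p = 5.89e-06) and was 0.0030 with DAC, not called. ITGB2 rose there with NTX-301 by 0.21 and fell with DAC (−0.12).

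C1QBP, a mainly mitochondrial protein named for binding the globular heads of C1q, fell with DAC (−0.21 in HL-60, −0.25 in MOLM-13) and with NTX-301 (−0.11 in HL-60, −0.36 in MOLM-13). C1RL, a protease related to C1r, rose in MOLM-13 by 0.29 and 0.34 and was not called in HL-60. C4A and C4B, nearly identical copies whose reads may be split between them, were called with NTX-301 in MOLM-13 (0.19 and 0.18) and in no other contrast against DMSO, and remain uncertain. Between the drugs, CD93, a membrane protein of myeloid and endothelial cells, was the 1 gene of this list called in MOLM-13 (−0.12 with NTX-301 against DAC, SE 0.022, limma adjusted p = 0.00901), and the list's count there was 2 without DMSO replicate 1 and 3 without DAC replicate 3.

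**Figure D3:**
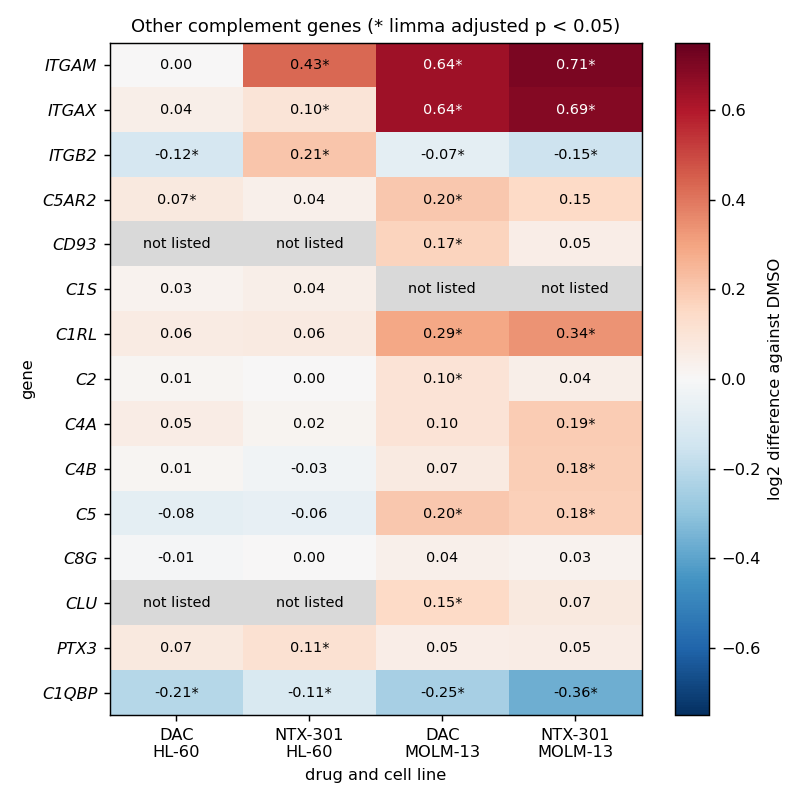
Log2 difference from DMSO (colour and printed value) of other complement genes listed in at least 1 line, by drug and line, with an asterisk for a limma adjusted p under 0.05 and grey for genes not listed. ITGAM, ITGAX and C1RL are high in both MOLM-13 columns and C1QBP is low in all 4.

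CD55 and CD59 are held in the membrane by a glycosylphosphatidylinositol (GPI) anchor, so 28 genes of anchor synthesis and attachment were read beside them, all tested in both lines. In HL-60 DAC called 3 higher and 2 lower (3 in all without DMSO replicate 2 or DAC replicate 3), beside 24.2% of all genes, and NTX-301 4 higher and 9 lower, beside 37.4%. In MOLM-13 DAC called 3 higher and 8 lower (6 in all without DMSO replicate 3, and 7 without DAC replicate 2 or 3), beside 36.6% of all genes, and NTX-301 2 higher and 11 lower, beside 45.1%. These totals lie near the shares of all genes, with more calls lower than higher except with DAC in HL-60. Of all genes, 12.6% with DAC and 19.2% with NTX-301 were called lower in HL-60 (12.1% and 35.5% after centring). In MOLM-13 these shares were 21.2% and 24.8% (32.8% and 33.0% after centring). With NTX-301 the list median was −0.048 (HL-60) and −0.045 (MOLM-13). PIGW, which adds a fatty acid to the anchor's inositol, fell in MOLM-13 (−0.24 with DAC, −0.35 with NTX-301), as did DPM1, a catalytic subunit of dolichol-phosphate mannose synthase (−0.26 and −0.34). In HL-60 PIGQ fell with NTX-301 (−0.33, SE 0.040, limma adjusted p = 1.45e-05), and PIGS, a subunit of the enzyme that attaches the anchor, rose with both drugs by 0.18 and 0.15. PIGU, another subunit of that enzyme, fell with DAC in HL-60 (−0.14). With NTX-301 against DAC, 11 of 28 were called in HL-60, 10 of them lower with NTX-301 (30.4% of all genes called and 15.0% lower, or 33.8% lower after centring), and 3 of 28 in MOLM-13 (7.42% of all genes), all lower: GPAA1 (−0.12), PIGX (−0.19) and PIGQ (−0.16). In HL-60 PIGQ (−0.25) and PIGW (−0.15) were the 2 with the lowest adjusted p. The MOLM-13 count was 0 without DAC replicate 3 or NTX-301 replicate 2 or 3, and 1 without DMSO replicate 3, DAC replicate 2 or NTX-301 replicate 1, in a fit without the trend, with the replicate block or with only the 2 groups compared.

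C3AR1 and C5AR1 belong to the chemoattractant receptors, and 15 others were followed, 9 tested in HL-60 and 10 in MOLM-13. CXCR4, the receptor for the marrow retention signal CXCL12, rose in HL-60 by 0.43 with DAC (SE 0.021, limma adjusted p = 4.26e-09), the 1 of 9 called there (24.2% of all genes; 2 without NTX-301 replicate 1 or 3, and 3 after quantile normalization, 2 of them lower), and by 0.27 with NTX-301. NTX-301 called 4 of 9 in HL-60 (37.4% of all genes), all higher, with CCR1 at 0.39 and CCR2 at 0.34. In MOLM-13 DAC called 4 higher and 1 lower (36.6% of all genes) and NTX-301 4 higher and 2 lower (45.1%; 3 in all without NTX-301 replicate 3). CX3CR1 rose there by 0.56 and 0.69 and PTAFR, the receptor for platelet-activating factor, by 0.83 and 0.48. CCR2 fell in MOLM-13 (−0.28 and −0.465, limma adjusted p = 7.59e-05 and 1.62e-06), opposite to its rise with NTX-301 in HL-60, and the NTX-301 change differed between the lines by −0.81 (adjusted p = 1.05e-09). With NTX-301 against DAC, 3 of 10 were called in MOLM-13 (7.42% of all genes), all lower (CCR2 −0.19, CXCR4 −0.17, PTAFR −0.36), and 1 of them without NTX-301 replicate 2. In HL-60 that contrast called CCR2 and CCR1 higher (0.43 and 0.35) among 4 of 9 (30.4% of all genes).

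The genes whose pattern lay nearest to C3 were sought among the 15517 genes listed in both lines, by the root mean square difference from C3 over the 12 drug-treated samples, each value taken relative to the DMSO mean of its line. They were CD86 (0.294), a costimulatory protein of antigen-presenting cells, DNASE2 (0.330), a lysosomal nuclease, CHRNA6 (0.358), a nicotinic receptor subunit, TRANK1 (0.359), and FGR (0.360), a Src-family kinase of myeloid cells. The mean log2 differences of CD86 in HL-60 were −0.04 with DAC and 0.52 with NTX-301, beside 0.03 and 0.46 for C3. Those in MOLM-13 were 0.86 and 0.74, beside 1.31 and 1.10. The HL-60 mean of CD86, like that of C3, lay near 0 with DAC and above it with NTX-301. CD86 was picked by its nearness to C3 in these same samples, so the likeness is a description. The distance also uses the C3 values with DAC that entered the choice of the set. After quantile normalization 3 of these 5 stayed among the nearest 5, and CHRNA6 and FGR gave way to SORL1 and CYBB.

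**Figure D4:**
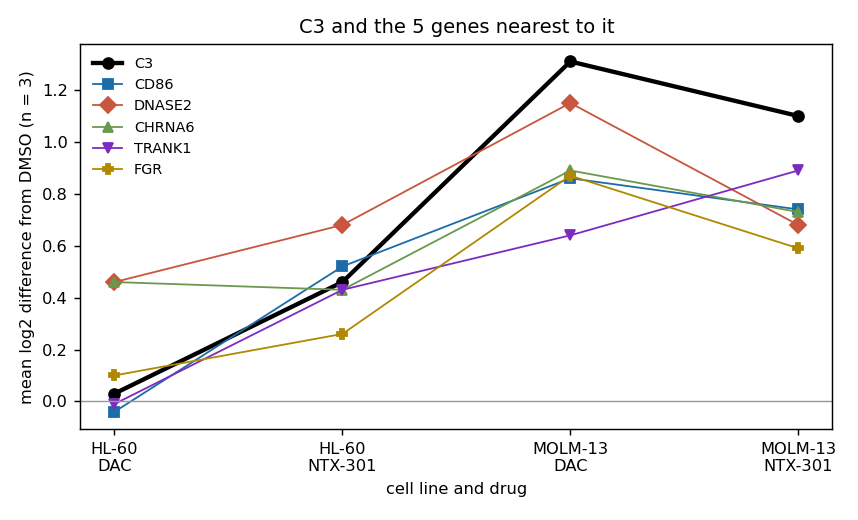
Mean log2 difference from the DMSO mean of the same line (y axis, 3 samples a point) for C3 (thick black) and the 5 genes nearest to it, by line and drug (x axis); lines join the points of a gene. C3 lies above the others in both MOLM-13 groups.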

How the data were processed

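RNA of 18 samples was measured by stranded total RNA sequencing. The authors deposited 1 normalized log2 value per gene and sample; the unit is read from the values, and the normalization is not given in the sources used here. Per the submitters' processing notes, FastQC, Trimmomatic 0.38, HISAT2 and StringTie were used with build hg19. Whether strand was used in counting is not stated. The tables hold 17110 (HL-60) and 17475 (MOLM-13) genes.

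Members were found by symbol. The members and lists were chosen with earlier results of these data known, so the tests are not independent evidence. Testing kept genes that reached a linear value of 1 in 3 or more samples (17046 and 17475), and used limma 3.58.1 in R 4.3.3 (lmFit, eBayes with trend, two-sided), 1 fit of 9 samples per line, and 1 fit of 18 samples for the difference between lines over 15474 genes. Steps were tested on simulated data. Depth is unknown, so precision rests on replicates. Alternatives were centring, quantile normalization, a pseudocount of 1, no trend, no filter, a replicate block, only the groups compared, and leaving out each sample. The named genes were the 9 members, the 2 genes with the lowest adjusted p-value per wider list and within-line contrast, and the 5 nearest to C3; other genes of the wider lists were named after their values were seen. Some genes of the lists are counted but not reported by name here.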

Additional observations from a re-analysis of the deposited data

Results flagged for a closer look

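For 4 results a drug moved the gene differently in MOLM-13 and in HL-60, given as the change in the first less that in the second. With DAC this difference was 1.28 for C3, which was used in choosing the genes and is a description, and by limma's interaction contrast 0.39 for CFP and 0.27 for CFD. With NTX-301 it was 0.64 for C3 by the same contrast, which shares its DMSO samples with the choice of the genes. Line and stated dose cannot be told apart.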

How the results depend on the processing

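Depth is unknown, so its limits cannot be given; low genes such as C5AR1 are compressed. Alternatives for the wider lists, and the block for single genes, were added after seeing the data. Of 122 values per setting, 122 were rated as kept with log2(linear value + 1) and with no filter, and 119 with only the groups compared. The replicate block kept 118, no trend 116, centring 115 and quantile normalization 103. A gene's difference was kept if its direction and side of the threshold held. A count of called genes was kept if its total stayed similar, with directions not compared. With no filter, the other complement genes called with DAC in HL-60 went from 1 higher and 2 lower to 0 higher and 2 lower, rated as kept. Where values moved, the cause was not tested. Quantile normalization turned C3 (−0.0044) and CFD (0.0055) with DAC in HL-60, CD46 (0.012) between drugs in HL-60 and with DAC (0.044) and NTX-301 (0.062) in MOLM-13, and C3AR1 (−0.0061) between drugs in MOLM-13, none of them called. Between lines it turned C3AR1 (−0.0021), CD46 (0.081) and CD55 (−0.019) with DAC, and CFD (0.081) and CD55 (−0.013) with NTX-301, where CD46 became called (0.087), making 2 members. It gave 6, 5 and 2 other complement genes in MOLM-13 (DAC, NTX-301, between drugs) and 3 chemoattractant receptors with DAC in HL-60. Centring turned C5AR1 with NTX-301 against DMSO (−0.010) and DAC (−0.028) and CD55 between lines with DAC (−0.034), gave 5 other complement genes between drugs in HL-60, and made calls of CD46 (−0.058) and CD55 (−0.10) there and of CD59 with NTX-301 in MOLM-13 (−0.13). The replicate numbers did not pair the samples (correlations −0.06 to 0.12 in HL-60 and −0.16 to 0.11 in MOLM-13, 1 of 9 pairs over 0.1 in each); with the replicate block 1 member and 1 GPI gene were called between drugs in MOLM-13. Without the trend, and with only the groups compared, these were 1 GPI gene and, with DAC in HL-60, 2 chemoattractant receptors.

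Leaving out 1 sample gave these ranges. In HL-60 with DAC, 3 to 5 GPI genes and 1 to 2 chemoattractant receptors were called, and differences ran from −0.0026 to 0.0499 for C3, −0.0005 to 0.0252 for C5AR1 and −0.0703 to 0.0255 for CFD. Between drugs in HL-60, C5AR1 ran from −0.0038 to 0.0219 and CR1 from −0.065 to 0.0475. In MOLM-13, 6 to 11 GPI genes were called with DAC, and 5 to 9 other complement genes and 3 to 6 chemoattractant receptors with NTX-301, where CD55 ran from −0.0466 to 0.0054. Between drugs in MOLM-13, 0 to 2 members, 1 to 3 other complement genes, 0 to 2 GPI genes and 1 to 3 chemoattractant receptors were called; C3AR1 ran from −0.0317 to 0.0604 and CD46 from −0.024 to 0.0286. Between lines with DAC, CD46 ran from −0.0277 to 0.0249 and CD55 from −0.0258 to 0.0262. With NTX-301, 1 to 2 members were called, and CFD ran from −0.0873 to 0.0498, CD55 from −0.0247 to 0.0272 and CD59 from −0.0408 to 0.0237. CD59 against DMSO in MOLM-13 became called without DMSO replicate 2 with DAC (0.15) and without DMSO replicate 1 with NTX-301 (−0.13).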
